A study of Mus musculus with 26 samples.

Results

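The results concern 329 pairs of neighbouring genes in NIH3T3, a mouse fibroblast line of embryonic origin, taken from 6399 pairs for which a read-in estimate was deposited. Read-in is transcription that starts in an upstream gene, runs past its end and enters the gene downstream. A pair was chosen where the estimate was exactly 0 in both control libraries of the H2O2 and KCl experiment, finite and above 0 in both libraries after 2 h of H2O2, and not above 0 in both libraries after 2 h of KCl. The values of these 3 groups chose the pairs, and every measure of the same contrasts is given below as a description. The 329 downstream genes and the 329 upstream genes were each distinct, and 9 genes served as the downstream gene of one pair and the upstream gene of another.

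Polyadenylated RNA was sequenced in 16 libraries and ribosome footprints, the mRNA fragments covered by ribosomes, in 10 libraries, with 2 replicates in each of 13 groups. The RNA groups were an untreated control with oxidative stress by H2O2 (2 h or 7 h) and osmotic stress by KCl (2 h or 7 h), and a separate control with heat at 44 °C for 2 h or 42 °C for 8 h. Footprints covered the control, H2O2 and KCl groups. No group carried a genetic change by its labels, and the labels do not say whether replicates were separate cultures, so the p-values below measure the spread between these libraries, which may be technical. All groups share a single immortalized cell line, which limits them as a model of fibroblasts in tissue.

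RNA libraries held 24441877 to 45244430 expected counts and footprint libraries 1460751 to 5168537. The 2 control RNA libraries (45244430 and 35775040) were deeper than those of H2O2 at 2 h (30541457 and 33106958) and of KCl at 2 h (25207561 and 26939393). How much depth shaped the choice of pairs was not tested. All 9 fibroblast markers were detected in RNA, with a summed level of 7990 to 16400 TPM (a transcript level scaled by gene length and library size). Summed levels were 7.89 to 19.6 TPM for 4 epithelial, 5.33 to 44.7 TPM for 3 leukocyte and 0.34 to 3.18 TPM for 3 endothelial markers, with 1 leukocyte marker at 0 in every library.

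Transcription of a protein-coding gene normally ends soon after the cleavage and polyadenylation machinery has cut the transcript and an exonuclease has caught up with the polymerase. Several stresses, among them osmotic stress, heat and oxidation, are known to weaken this step, and the polymerase then makes long downstream-of-gene transcripts (DoGs) that can reach the next gene. H2O2 is also a classical inducer of the NRF2 antioxidant programme and, through DNA damage, of p53 targets, so a downstream gene can gain RNA from its own promoter as well.

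The 250 bases before the start of a downstream gene are the last stretch that read-in transcription crosses before it enters the gene, and they hold that gene's own promoter. They are shown for Cebpa, Matn4 and Sesn2, whose RNA and footprints carry the comparisons below, and for Slc17a7, the single downstream gene of the set with a read-in call by the authors. The sequences are RefSeq's on GRCm38.p6, which is the mm10 build named in the submitters' processing notes, read 5′ to 3′ on the strand of the gene, and each ends at the base before the annotated start. Capitals mark the letters TATAAA, known from many core promoters, or the polyadenylation signal AATAAA, on either strand. The Cebpa stretch holds TATAAA, and in the other three neither word was found.
Cebpa, chr7:35119043-35119292, + strand: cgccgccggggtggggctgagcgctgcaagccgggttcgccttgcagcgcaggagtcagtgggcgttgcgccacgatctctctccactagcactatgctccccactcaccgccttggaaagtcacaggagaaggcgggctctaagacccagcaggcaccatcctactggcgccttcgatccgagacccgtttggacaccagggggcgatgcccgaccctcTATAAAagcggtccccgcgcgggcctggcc
Matn4, chr2:164405161-164405410, - strand: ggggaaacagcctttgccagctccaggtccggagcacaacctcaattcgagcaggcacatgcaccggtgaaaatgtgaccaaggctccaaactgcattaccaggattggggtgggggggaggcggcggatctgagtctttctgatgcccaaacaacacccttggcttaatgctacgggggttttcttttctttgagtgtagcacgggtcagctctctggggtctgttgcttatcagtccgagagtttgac
Sesn2, chr4:132510457-132510706, - strand: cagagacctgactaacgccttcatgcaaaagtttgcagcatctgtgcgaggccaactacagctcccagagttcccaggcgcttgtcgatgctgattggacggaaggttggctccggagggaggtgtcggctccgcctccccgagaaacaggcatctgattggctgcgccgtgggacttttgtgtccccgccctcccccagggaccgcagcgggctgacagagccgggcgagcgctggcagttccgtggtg
Slc17a7, chr7:45163671-45163920, + strand: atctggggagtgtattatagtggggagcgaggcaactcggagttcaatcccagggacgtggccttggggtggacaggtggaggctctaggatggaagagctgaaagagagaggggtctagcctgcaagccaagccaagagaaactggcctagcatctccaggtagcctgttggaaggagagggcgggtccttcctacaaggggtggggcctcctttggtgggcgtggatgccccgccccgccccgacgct

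A RefSeq stretch of this kind could be matched to 255 of the 329 downstream genes, which is below 80%, so a comparison of their base composition or motifs is void. The numbers are given as a description, and no difference is read from them. TATAAA on either strand stood in 17 of the 255 stretches (6.67%) and in 8.2% of 5000 stretches over all pairs. AATAAA on either strand stood in 20 of the 255 (7.84%) and in 11.1% over all pairs. These words can overlap, a stretch with both counts under each, and no match says only that these letters are not in the stretch.

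The gain that chose the pairs was small in most of them. The mean of the 2 H2O2 libraries at 2 h ranged from 3.54e-05 to 1.8, with a median of 0.0118 and quartiles of 0.00307 and 0.095. It was at least 0.01 in 173 pairs, at least 0.1 in 78 and at least 1 in 9. The estimate is a ratio deposited without its formula in the sources used here. The larger replicate value was a median of 1.62 times the smaller, and over 2 times in 110 pairs.

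The counts behind an estimate are not known, since its formula is not. Multiplied by the expected count of the downstream gene in the same library, the estimate came to a median of 5.95 in replicate 1 and 7 in replicate 2, with highest values of 225 and 121. In 288 pairs with at least 3 libraries above 0, 82 had products that were all whole multiples of the smallest, within 0.03 of a step. In these 82 pairs the H2O2 libraries at 2 h stood at a median of 2 steps, 53 pairs were at a single step in at least 1 of the 2 libraries, and the highest value was 41 steps. For Cldn9 and Creb3l3 the estimate was missing or infinite in each library where the downstream count was 0, as in a ratio over that count. The ratio may thus hold the RNA of the downstream gene. An estimate and the RNA level of the same gene, set side by side below, may then not be independent measures.

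Of the 329 pairs 173 were at 0 in both KCl libraries at 2 h and 147 were above 0 in 1 of them, while the remaining 9 had a missing or infinite value. Pairs at the low end of the rule had abundant downstream genes, and those at the high end nearly silent ones. A ratio over the downstream count may give such an order, which was not tested. For Mrpl27 to Col1a1 (upstream gene first) the H2O2 values were 3.72e-05 and 3.37e-05 and for Smyd3 to Hnrnpu 0.000148 and 0.00013. The highest pairs were Skiv2l2 to Ddx4 at 0.924 and 2.67, Dhx15 to Ppargc1a at 1.9 and 1.05, and Ppp1r32 to Lrrc10b at 1.69 and 1.19. At 2 h of KCl the estimates were 0 and 2.67 for Ddx4, 0.9 and 0 for Ppargc1a, and 0 and 0 for Lrrc10b. The downstream counts at 2 h of H2O2 were 6 and 4 for Ddx4, 11 and 6 for Ppargc1a, and 16 and 21 for Lrrc10b.

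Just outside the rule stood 576 pairs that were above 0 in 1 H2O2 library and 193 that were above 0 in 1 control library. Among the first, U2surp to Chst2 had 0 and 3.12 after H2O2, Prpf4 to Bspry 2.61 and 0, and Cacybp to Tnn 0 and 1.89. Among the second, Rnf216 to Actb had 1.36e-05 in 1 control library against 1.95e-05 and 4.94e-05 after H2O2. Gcdh to Calr had 2.32e-05 in 1 control and 9.02e-05 and 8.81e-05 after H2O2, and Ahnak to Fth1 3.19e-05 in 1 control and 9.49e-05 and 4.25e-05 after H2O2. A single control or stress library thus separated these pairs from the 329.

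**Figure D1:**
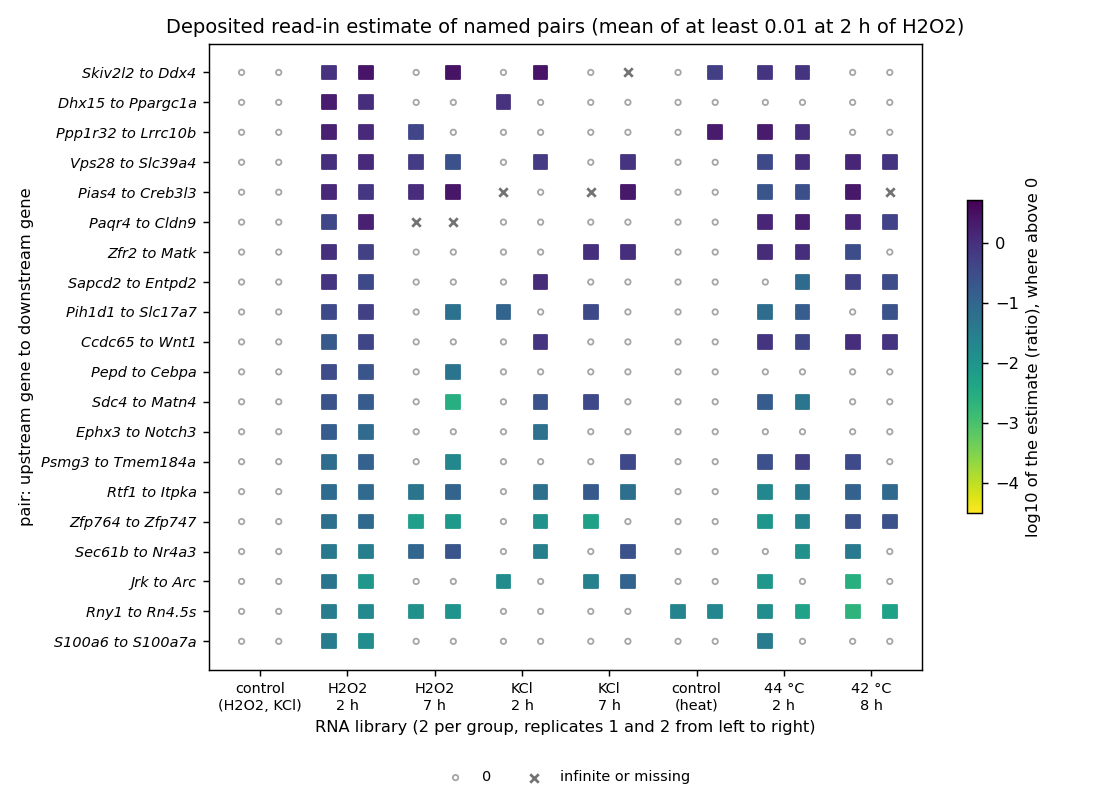
Read-in estimate (ratio, colour on a log10 scale) of the 20 named pairs with a mean of at least 0.01 at 2 h of H2O2, in each of 16 RNA libraries, with open circles for 0 and crosses for infinite or missing values, and pairs ordered by that mean. Both control columns are at 0 and both H2O2 2 h columns above 0 by the choice of the pairs, while the other groups hold a scatter of zeros and positive values.

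The authors also deposited true or false calls per library. A read-in call, their stricter verdict, was given to 1 of the 329 pairs in 1 library. It was Pih1d1 to Slc17a7 in replicate 2 of H2O2 at 2 h, and it was singled out here after the calls were seen. Slc17a7, a vesicular glutamate transporter of neurons, lies 3.85 kb after Pih1d1 on chromosome 7 (45163921 to 45176139). Its estimates after 2 h of H2O2 were 0.357 and 0.498 and its level 5.74 and 5.44 TPM, against 1.25 and 1.14 TPM in the controls. The level was back at 1.52 and 1.45 TPM at 7 h, where the estimates were 0 and 0.0576. KCl gave 0.79 and 0.68 TPM at 2 h. In heat the level was 3.49 and 3.02 TPM at 44 °C and 0.61 and 1.21 TPM at 42 °C, against 2.08 and 2.38 TPM in the heat controls. Slc17a7 was thus highest in both 2 h H2O2 libraries of all 16.

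DoG calls of the upstream genes were more common. They were given in both libraries to 39 of the 329 pairs in the controls (against 14.3% of all 6399 pairs) and to 65 after 2 h of H2O2 (against 20.7% of all pairs). The number was 29 of 329 at 7 h of H2O2 (against 11.1% of all pairs), 43 at 2 h of KCl (against 19.0%) and 35 at 7 h of KCl (against 13.1%). In the heat experiment it was 39 of 329 in the controls (against 15.7% of all pairs), 67 at 44 °C (against 19.5%) and 59 at 42 °C (against 17.6%). Thus 65 of 329 pairs had a DoG call in both libraries where all 329 had an estimate above 0.

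The genes of the pairs lay in tandem, as read-in requires. RefSeq positions were found for 322 of the 329 pairs, and in all 220 pairs with 2 known strands the downstream gene followed the upstream one on the same strand, as in all 4253 such pairs of the table. The gap between the genes had a median of 25 kb, with quartiles of 11.2 and 59.1 kb, and 1 pair overlapped. It was under 10 kb in 74 pairs (23.0% of those placed).

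Gaps were shorter in the pairs that gained read-in under both stresses. The 247 pairs that met the same rule in H2O2 and were also above 0 in both KCl libraries had a median gap of 9.38 kb, and 52.9% of those placed were under 10 kb. The 111 pairs that gained in KCl alone stood at 15.4 kb and 39.4%. The other 2534 pairs at 0 in both controls, which include both of these sets, stood at 53.1 kb and 15.4%. All 6399 pairs had a median of 37.7 kb, with 25.7% under 10 kb. By their median the 329 pairs thus lay between the other gaining sets and the other pairs at 0. No test was made, since each set was chosen on the estimates.

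**Figure D2:**
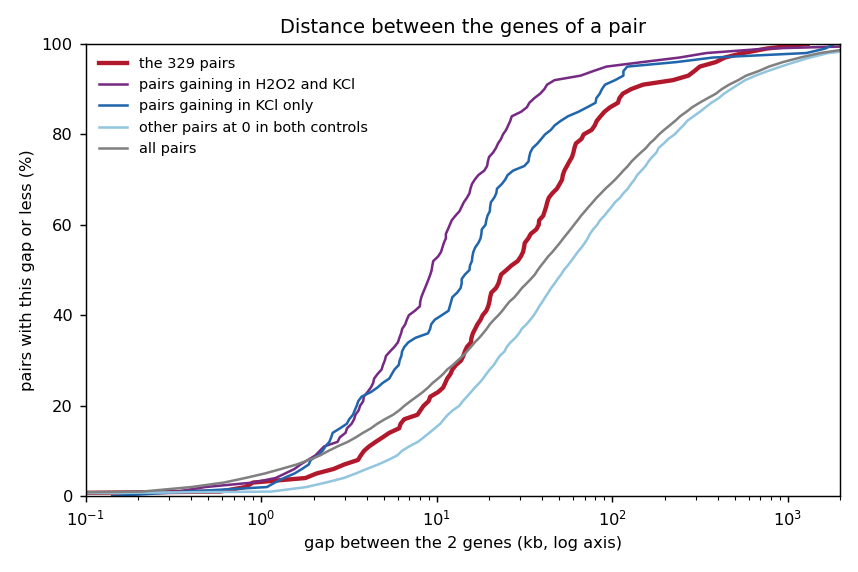
Share of pairs (%) whose gap is at or below the distance on the log axis (kb), for the 329 pairs, the pairs that gained in H2O2 and KCl or in KCl alone, the other pairs at 0 in both controls and all pairs. At the median the 329 pairs (25 kb) stand right of the 2 other gaining sets (9.38 and 15.4 kb) and left of the other pairs at 0 in the controls (53.1 kb), while the curves of the 329 pairs and of KCl alone cross at both ends.

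Few of the pairs were above 0 in both libraries of a group at 7 h. The unstressed heat controls had 12.2% of the pairs above 0 in both libraries. The pairs were chosen as above 0 at 2 h, and how far that choice shaped the lower numbers at 7 h was not tested. In H2O2 at 7 h 95 and 111 of the 329 pairs were above 0 in the single libraries and 50 in both (15.2%). That count was 25.7% over all pairs and 5.88% over the other pairs at 0 in both controls. In KCl at 7 h 75 and 71 pairs were above 0 in the single libraries and 27 in both (8.21%), against 24.4% of all pairs and 5.05% of the other pairs at 0 in the controls. Of the 329 pairs 43 were above 0 in both H2O2 libraries and not both KCl libraries at 7 h, 20 the other way round, 7 in all 4 and 259 in neither group. The 247 pairs gaining under both stresses had 20.2% above 0 in both libraries of H2O2 and 31.2% in those of KCl at 7 h. With 2 libraries against 2, an exact two-sided permutation test cannot go below 0.333, so no test of single estimates was made.

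More of the pairs were above 0 in heat. In the heat controls 90 and 82 pairs were above 0 in the single libraries and 40 in both (12.2%, against 25.8% of all pairs and 4.78% of the other pairs at 0 in the H2O2 and KCl controls). At 44 °C the single libraries had 134 and 141 and both had 83 (25.2%, against 33.8% of all pairs and 10.3% of those other pairs). At 42 °C the single libraries had 109 and 127 and both had 68 (20.7%, against 32.0% and 11.9%). In 35 pairs both heat groups were above 0 in both libraries. In each of these 5 groups the 329 pairs stood below the share of all pairs and above that of the other pairs at 0 in those controls. They had been chosen at 0 in 2 controls and above 0 in both H2O2 libraries at 2 h. Of the other 2534 pairs, 1595 were at 0 in both of those H2O2 libraries. Both positions may thus follow from the choice and are not read as a result about the pairs.

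**Figure D3:**
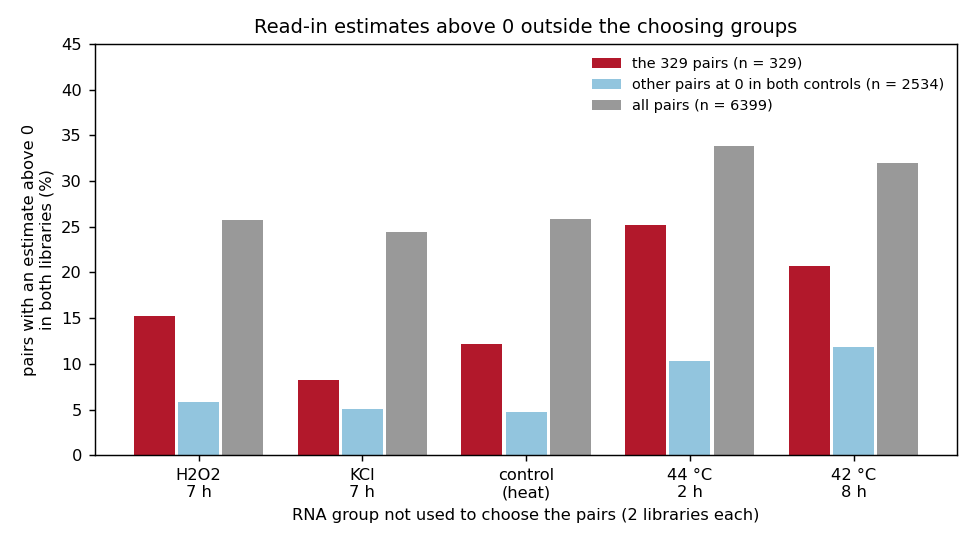
Share (%) of pairs with an estimate above 0 in both libraries of the 5 RNA groups that did not choose them, for the 329 pairs, the other pairs at 0 in the H2O2 and KCl controls and all pairs. The 329 pairs run from 8.21% at 7 h of KCl to 25.2% at 44 °C, between the other zero-control pairs and all pairs in each group.

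Of the 329 pairs 194 were at 0 in both heat controls. At 44 °C 31 of these (16%) were above 0 in both libraries, against 9.39% of all pairs at 0 in the heat controls, 30.3% of the pairs that had gained in H2O2 and KCl and 19.4% of those that had gained in KCl alone. At 42 °C the number was 27 (13.9%), against 10% of all such pairs, 29.5% and 19.4%. The 329 pairs thus stood below both other gaining sets. In 11 pairs both heat groups gained, and in 47 at least 1 did. In the 10 libraries that did not choose the pairs, 52 pairs were never above 0, no pair was above 0 in all 10, and the median pair was above 0 in 3.

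The 8 pairs with the highest heat estimates among those gained in heat mostly led into genes that these fibroblasts hardly express. They were ranked by the estimate, and a ratio over the downstream count may favour genes of low count, which was not tested. The low levels are thus not read as a result. Vps28 to Slc39a4, a zinc importer, had 0.968 and 1.23 after 2 h of H2O2, 0.353 and 1.06 at 44 °C and 1.37 and 0.795 at 42 °C. Slc39a4 stood at 0.17 and 0.05 TPM in the controls, 1.34 and 1.37 TPM after 2 h of H2O2 and 0.33 and 0.64 TPM at 7 h. It was thus highest in the libraries that chose the pair. Ccdc65 to Wnt1, a secreted signalling protein of the embryo, had 0.182 and 0.431 after 2 h of H2O2, 0.79 and 0.431 at 44 °C and 1.05 and 0.79 at 42 °C. Its level did not pass 0.45 TPM in any library. Paqr4 to Cldn9, a tight junction claudin, had 0.394 and 1.65 after 2 h of H2O2, 1.44 and 1.73 at 44 °C and 1.44 and 0.481 at 42 °C, at no more than 0.56 TPM. The Cldn9 counts were 1 and 5 at 44 °C and 2 and 6 at 42 °C.

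The remaining pairs of this group varied among themselves. Sapcd2 to Entpd2, an ectonucleotidase, gained at 42 °C (0.484 and 0.323) and had 0 and 0.0807 at 44 °C. Zfr2 to Matk, a kinase of blood cells, gained at 44 °C (1.14 and 1.07), and was also above 0 in both KCl libraries at 7 h (0.943 and 1.01). Pias4 to Creb3l3, a transcription factor of liver and gut, stood at 1.1 and 2.45 at 7 h of H2O2, while at 44 °C the values were 0.228 and 0.285. Psmg3 to Tmem184a gained at 44 °C (0.266 and 0.531).

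Zfp764 to Zfp747, a tandem of zinc finger genes 3.71 kb apart on chromosome 7, had a downstream gene at 3.7 TPM or more in every library. Its estimates were 0.0651 and 0.0874 after 2 h of H2O2, 0.00932 and 0.0238 at 44 °C, and 0.243 and 0.241 at 42 °C, with 0 in both heat controls. At 42 °C both genes were lower than in the heat controls, Zfp747 at 3.7 and 3.79 TPM against 9.23 and 9.63 TPM, and Zfp764 at 1.86 and 2.01 TPM against 5.83 and 5.24 TPM. Both calls held by edgeR's quasi-likelihood test with Benjamini-Hochberg adjustment over 12747 genes (log2 fold change -1.15 ± 0.0892 SE, adjusted p = 8.24e-08 for Zfp747, and -1.33 ± 0.131, adjusted p = 8.11e-07 for Zfp764). The estimate stood highest in the 2 libraries where Zfp747 RNA was lowest of all 16, and these 2 measures may not be independent. Zinc finger genes of such tandems can share sequence, so counts may be split between them.

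At the RNA level, the downstream genes were mostly expressed genes. Their median level was 20.3 TPM in the controls and 19.6 TPM after 2 h of H2O2, against 13 and 12.3 TPM over all pairs. Of 324 with a count, 75 were under 1 TPM in the controls and 52 after 2 h of H2O2. The rule took only finite estimates in these libraries. Estimates such as those of Cldn9 and Creb3l3 were missing or infinite where the downstream count was 0. The rule could thus pass over silent downstream genes, and how far it shaped the difference from all pairs was not tested. The upstream genes had medians of 36.9 and 36.6 TPM. As a description of the contrast that chose the pairs, the median log2 change of the downstream genes from control to 2 h of H2O2 was -0.02, and 58 of 308 (18.8%) were up by at least 1, against 12.1% of all genes. For 2 h of KCl the median was -0.08 and 22 (7.14%) were up by at least 1, against 8.49% of all genes. In polyA-selected RNA, reads made by read-in and reads from the gene's own promoter cannot be told apart.

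H2O2 and KCl were compared directly at 7 h, a contrast of 4 libraries that took no part in choosing the pairs. The filter on low counts and the estimate of the spread drew on all RNA libraries of that experiment, including those that chose the pairs. A fit of the 4 libraries alone tested 285 downstream genes, not 308, and called 138 higher and 107 lower in H2O2. By edgeR's quasi-likelihood test at an adjusted p of 0.05, 139 of 308 downstream genes were higher in H2O2 (45.1%, against 41.0% of all genes) and 103 were lower (33.4%, against 37.4%). Their median log2 difference was 0.21, against 0.05 over all genes. With an absolute log2 difference of at least 1 required as well, 76 of 308 were higher and 32 lower, against 19.6% and 14.3% of all genes. Upstream genes were closer to the background, with 135 of 322 higher (41.9%) and 122 lower (37.9%). These shares lie near those of all genes, so they are not a result about the pairs, while single genes differed by far more than their replicates.

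Among called downstream genes whose average log2 CPM (counts scaled to library size) was 1 or more, the 4 largest differences were those of Matn4, Notch3, Tmem184a and Cebpa, and some less abundant genes differed by more than Tmem184a. Matn4 encodes matrilin 4, a matrix adaptor protein, and lies 19.1 kb after Sdc4 on the minus strand of chromosome 2 (164389393 to 164405160). It stood at 0.22 and 0.19 TPM in the controls, 3.52 and 3.21 TPM after 2 h of H2O2 and 44.2 and 46.3 TPM at 7 h. KCl gave 0.39 and 0.71 TPM at 2 h and 0.2 and 0.21 TPM at 7 h. The difference between H2O2 and KCl at 7 h was 7.9 ± 0.175 (SE) on the log2 scale, with an adjusted p of 7.68e-14 by edgeR's quasi-likelihood test. Its estimates had been 0.229 and 0.171 at 2 h of H2O2 and were 0 and 0.00269 at 7 h. Values above 0 were not confined to H2O2. Replicate 2 of the early KCl group had 0.236, and replicate 1 of the late KCl group had 0.374, with their partner replicates at 0. Both libraries at 44 °C were above 0 too (0.16 and 0.0473), while those at 42 °C and the heat controls were at 0. The estimate of Sdc4 to Matn4 was thus at or near 0 where Matn4 RNA was highest, and the estimate and the RNA may not be independent measures.

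The upstream gene Sdc4, a heparan sulfate proteoglycan of the cell surface, did not follow the same course. It stood at 380 and 417 TPM in the controls, 777 and 854 TPM after 2 h of H2O2 and 340 and 390 TPM at 7 h. Against KCl at 7 h (180 and 196 TPM) it was higher by 0.94 ± 0.0767 on the log2 scale (adjusted p = 4.29e-08, edgeR). Sdc4 was therefore highest at 2 h and Matn4 at 7 h.

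Notch3, a receptor of the Notch pathway that is prominent in smooth muscle and pericytes, lies 16.9 kb after Ephx3 on the minus strand of chromosome 17 (32120820 to 32166896). It stood at 0.78 and 0.9 TPM in the controls, 2.35 and 2.72 TPM after 2 h of H2O2 and 59.9 and 59.5 TPM at 7 h. In KCl at 7 h it was at 0.41 and 0.55 TPM. The 7 h difference was 6.96 ± 0.112 on the log2 scale (adjusted p = 6.79e-15, edgeR). Ephx3, an epoxide hydrolase, went the other way, at 0.31 and 0.65 TPM in H2O2 and 0.82 and 0.86 TPM in KCl (-1.45 ± 0.42, adjusted p = 0.0058, edgeR). The Notch3 estimates, 0.16 and 0.0845 at 2 h of H2O2, were 0 in both libraries at 7 h.

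Tmem184a, 3.64 kb after Psmg3 on chromosome 5, was at 10.3 and 9.87 TPM in H2O2 and 0.2 and 0.25 TPM in KCl at 7 h, a log2 difference of 5.57 ± 0.313 (adjusted p = 6.82e-10, edgeR). Cebpa, a transcription factor of fat, liver and myeloid cells, lies 74.6 kb after Pepd on chromosome 7 (35119293 to 35121928). It was at 7.12 and 8.27 TPM in H2O2 and 0.31 and 0.21 TPM in KCl at 7 h, a difference of 4.81 ± 0.247 (adjusted p = 2.58e-10, edgeR). At 2 h of H2O2, where its estimates of 0.33 and 0.22 chose it, Cebpa was at 1.1 and 1.54 TPM against 1.54 and 1.9 TPM in the controls. Cebpa had a higher estimate at 2 h with no higher RNA.

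The stress regulators Mdm2 and Sesn2 stood among the expressed downstream genes that differed. Mdm2, the ubiquitin ligase that degrades p53 and is itself a p53 target, was at 55.3 and 54.6 TPM in the controls, 184 and 183 TPM after 2 h of H2O2 and 1426 and 1618 TPM at 7 h. In KCl at 7 h it was at 69.1 and 69 TPM, and the 7 h difference was 4.45 ± 0.0757 on the log2 scale (adjusted p = 7.37e-15, edgeR). Sesn2, a stress-induced inhibitor of mTORC1 signalling, was at 10.3 and 12.2 TPM in the controls, 158 and 146 TPM after 2 h of H2O2 and 145 and 139 TPM at 7 h. In KCl at 7 h it was at 9.81 and 11.3 TPM (3.73 ± 0.0905, adjusted p = 1.77e-13, edgeR). The H2O2 libraries of both genes stood above all KCl and control libraries, yet their 2 h estimates were between 0.000448 and 0.00182, near the low end of the set. For Slc35e3 to Mdm2 the estimates were 0.00054 and 0.000511 at 2 h of H2O2 and higher at 7 h of KCl, at 0.00247 and 0.00323.

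**Figure D4:**
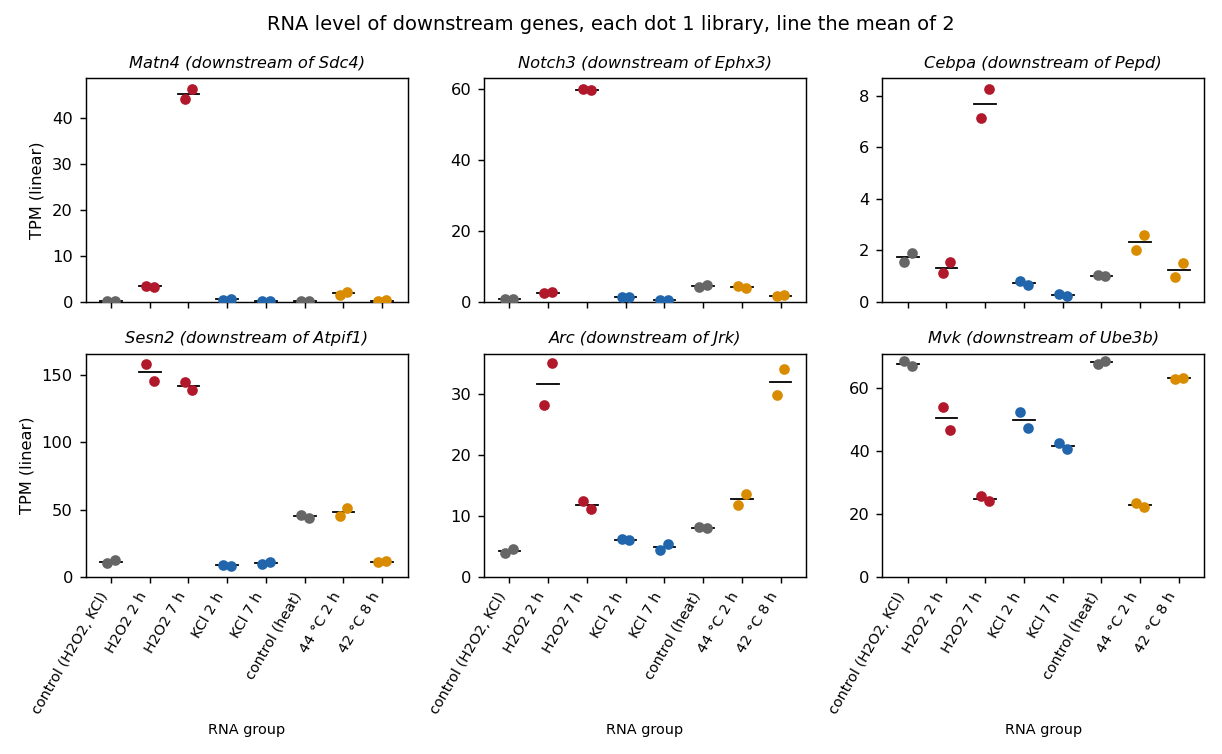
RNA level (TPM, linear axes from 0) of 6 downstream genes in the 2 libraries of each of 8 RNA groups, with dots for libraries and lines for means. Matn4, Notch3 and Cebpa peak at 7 h of H2O2, Sesn2 is high at both H2O2 times, Arc at 2 h of H2O2 and at 42 °C, and Mvk is lowest at 44 °C and at 7 h of H2O2.

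Footprints show whether downstream RNA was on ribosomes. Of 321 downstream genes listed in the footprint table, 231 passed the filter on low counts. At 7 h of H2O2 against the control 44 were higher (19.0%, against 17.2% of all genes) and 24 lower (10.4%, against 10.6%) by edgeR's quasi-likelihood test. Without replicate 2 of the 7 h H2O2 footprints these numbers were 26 and 9. Of 280 upstream genes 34 were higher (12.1%) and 29 lower (10.4%). Without that library they were 21 and 12, and without replicate 2 of the control footprints 23 and 16. Against KCl at 7 h 67 downstream genes were higher (29.0%, against 23.5% of all genes) and 33 lower (14.3%, against 17.8%), with a median log2 difference of 0.28 against 0.06 over all genes. For upstream genes the numbers were 58 (20.7%) and 34 (12.1%), or 35 and 24 without replicate 2 of the 7 h H2O2 footprints.

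Matn4, Notch3, Tmem184a and Cebpa had footprints as well. Matn4 had 237 and 131 footprint counts at 7 h of H2O2, against 0 and 1 in the controls and 3 and 0 in KCl at 7 h. Scaled to library size, that was 426 times the controls (95% counting interval 76.1 to 16900) and 126 times KCl (42.7 to 612). Both differences passed edgeR's test (adjusted p = 4.05e-06 and 5.56e-06). At 2 h of H2O2 Matn4 had 1 and 4 counts, few beside those at 7 h. The intervals cover counting error only.

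Notch3 had 948 and 896 counts at 7 h of H2O2, 17 and 13 in the controls and 4 and 0 in KCl at 7 h, and it differed from both by edgeR's test (adjusted p = 2.28e-07 and 6.45e-08). Cebpa had 23 and 17 counts at 7 h of H2O2 and 0 in all 4 libraries of the control and of KCl at 7 h. Against a floor of 3 counts over a group it was at least 15.4-fold higher than in the controls and at least 13.7-fold higher than in KCl (adjusted p = 0.00111 and 0.0011, edgeR). Tmem184a had 25 and 27 counts, against 0 and 1 in the controls and 0 and 0 in KCl, at least 17.8-fold higher than in KCl (adjusted p = 0.000442, edgeR). In each of these genes both H2O2 libraries at 7 h stood above all control and KCl libraries.

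Mdm2 had the most footprints of these genes, 7061 and 10915 counts at 7 h of H2O2 against 199 and 174 in the controls. The difference was 5.74 ± 0.35 on the log2 scale (adjusted p = 3.86e-07, edgeR), and against KCl at 7 h (131 and 134 counts) it was 5.89 ± 0.354 (adjusted p = 2.03e-07, edgeR). Sesn2 had 401 and 538 counts at 7 h of H2O2 against 42 and 44 in the controls (3.59 ± 0.274, adjusted p = 1.37e-06, edgeR). The upstream genes Slc35e3 and Atpif1 were less far apart, with 96 and 107 against 38 and 46 counts for Slc35e3 (1.41 ± 0.27, adjusted p = 0.00176, edgeR) and 197 and 258 against 179 and 139 for Atpif1 (0.67 ± 0.255, adjusted p = 0.068, edgeR). Atpif1 did not pass the test.

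Footprints at 2 h of H2O2 are given as a description. They cover the 231 downstream genes that passed the footprint filter, against 308 in RNA, so the 2 shares are of unlike sets of genes. Of the 231 downstream genes 14 were up by at least 1 on the log2 scale (6.06%, against 3.87% of all genes) and 5 down by at least 1 (2.16%, against 3.3%), with a median of 0.1. Sesn2 was among those up, at 171 and 703 counts in libraries of unequal depth, a log2 change of 3.49 ± 0.275. Downstream genes of low RNA level had few footprints. Slc39a4 had 0 counts in both H2O2 libraries at 2 h, Wnt1 had 0 and 2, and Cldn9 0 and 4. Slc17a7, at 5.74 and 5.44 TPM there, had 0 and 2, and at this depth no translation of their RNA was detectable beyond these counts.

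**Figure D5:**
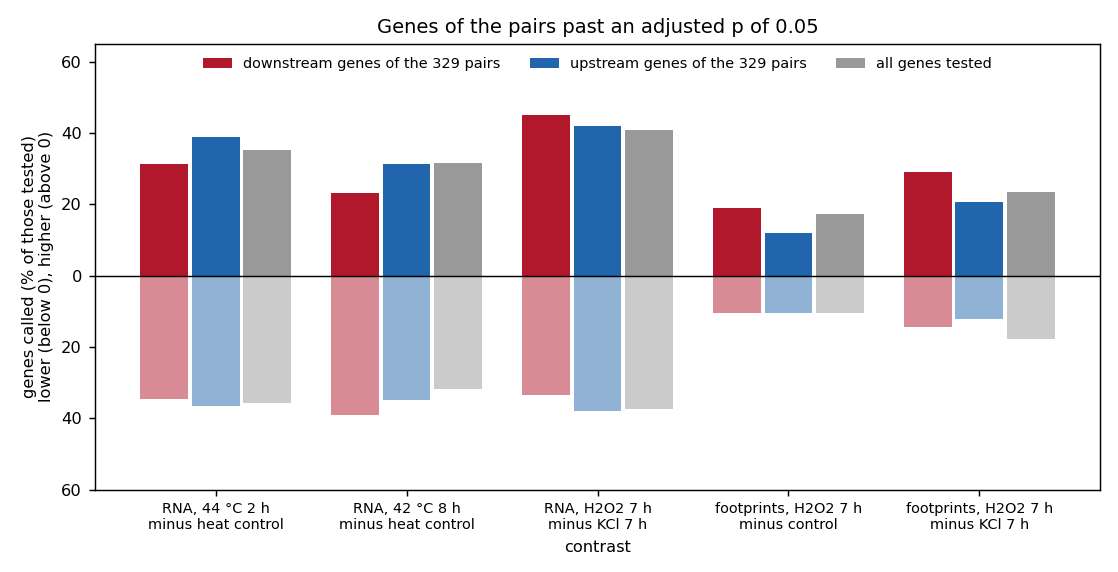
Share (%) of tested genes with an adjusted p below 0.05 (edgeR), higher above the axis and lower below it, in the 5 contrasts that did not choose the pairs, for downstream genes, upstream genes and all genes tested. At 42 °C 23.1% of the downstream genes were higher and 39.0% lower, against 31.7% and 31.9% of all genes, and in H2O2 against KCl at 7 h 45.1% were higher, against 41.0%.

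In heat, 290 downstream genes were tested. At 44 °C 91 were higher (31.4%, against 35.4% of all genes) and 100 lower (34.5%, against 35.7%) than in the heat controls by edgeR's quasi-likelihood test. At 42 °C 67 were higher (23.1%, against 31.7%) and 113 lower (39.0%, against 31.9%), and the median log2 change was -0.1 against -0.01 over all genes. Upstream genes had 123 higher and 116 lower of 317 at 44 °C (38.8% and 36.6%), and 99 and 111 at 42 °C (31.2% and 35%). Of the 290 downstream genes 31 also passed a log2 change of 1 at 44 °C (21 higher and 10 lower, against 6.09% and 4.88% of all genes). At 42 °C 34 did (10 higher and 24 lower, against 2.82% and 5.1% of all genes).

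Among called downstream genes whose average log2 CPM was 1 or more, the largest changes at 44 °C were those of S100a7a, Nr4a3, Mvk and Itpka, and some less abundant genes changed more. S100a7a, a small calcium-binding protein, stood at 0.96 and 0.93 TPM in the heat controls and 10.6 and 11.3 TPM at 44 °C (log2 fold change 3.86 ± 0.238, adjusted p = 4.53e-09, edgeR). Its upstream neighbour S100a6, at 2164 TPM or more in every library, belongs to the same gene family, so part of its reads could be shared. S100a7a also rose at 42 °C, to 4.29 and 2.8 TPM (1.83 ± 0.294, adjusted p = 8.81e-05, edgeR). Its estimate was 0.0361 and 0 at 44 °C and 0 in both libraries at 42 °C.

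Nr4a3, an orphan nuclear receptor induced as an immediate early gene, rose from 1.48 and 1.47 to 5.98 and 6.27 TPM at 44 °C (2.00 ± 0.109, adjusted p = 1.39e-09, edgeR). It was at a like level after 2 h of H2O2 (5.93 and 6.04 TPM, controls 2.21 and 2.02 TPM) and at 0.64 and 0.68 TPM at 7 h. Sec61b, its upstream neighbour 562 kb away, fell at 44 °C by 0.66 on the log2 scale (SE 0.0497, adjusted p = 3.36e-08, edgeR). Itpka, an inositol trisphosphate kinase 6.93 kb after Rtf1, rose from 2.12 and 2.68 to 7.02 and 6.95 TPM at 44 °C (1.48 ± 0.166, adjusted p = 1.93e-06, edgeR). At 42 °C it fell to 0.91 and 0.79 TPM (-1.28 ± 0.227, adjusted p = 0.000208, edgeR). The Itpka estimates were 0.0189 and 0.0393 at 44 °C and 0.125 and 0.0904 at 42 °C.

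Mvk, the mevalonate kinase of cholesterol synthesis, fell from 67.8 and 68.8 to 23.6 and 22.2 TPM at 44 °C (-1.65 ± 0.0567, adjusted p = 1.6e-11, edgeR). At 42 °C it was at 63 and 63.4 TPM. Mvk was also lower at 7 h of H2O2 than of KCl, at 25.9 and 24 against 42.7 and 40.6 TPM (-0.76 ± 0.0918, adjusted p = 2.82e-06, edgeR). Its read-in estimates were 0 in all 6 heat libraries. Ube3b, 23.1 kb upstream, also fell at 44 °C (-0.59 ± 0.0451, adjusted p = 4.14e-08, edgeR).

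Above the same abundance the largest changes at 42 °C were those of Rn4.5s, Arc, S100a7a and Sesn2, and some less abundant genes changed more than Arc. Arc, an immediate early gene of neurons that regulates receptor uptake, rose from 8.14 and 8.09 to 30 and 34.3 TPM (2.17 ± 0.0845, adjusted p = 7.6e-11, edgeR), and it was at 28.3 and 35.2 TPM after 2 h of H2O2 against 3.96 and 4.51 TPM in the controls. Its upstream neighbour Jrk, 29.8 kb away, fell at 42 °C (-1.0 ± 0.0865, adjusted p = 2.24e-07, edgeR). The estimate of Jrk to Arc at 42 °C was 0.00267 and 0. Sesn2 fell from 46.3 and 43.8 to 10.9 and 11.5 TPM (-1.82 ± 0.0761, adjusted p = 1.57e-10, edgeR), while at 44 °C it was at 45.1 and 50.8 TPM. Its level in the heat controls lay above that in the H2O2 and KCl controls (10.3 and 12.2 TPM), which limits a comparison of levels across the experiments.

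Rn4.5s is a small structural RNA with many near-identical copies and lies after Rny1, another small RNA listed at 0 TPM in all 16 libraries. It stood at 9.93 and 13.3 TPM in the heat controls and 170 and 176 TPM at 42 °C (4.09 ± 0.226, adjusted p = 2.88e-09, edgeR). In polyA-selected libraries with repeated copies its counts, and the estimate of a pair whose upstream gene has none, are uncertain.

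The abundant downstream genes give estimates near 0 on large counts. Col1a1, the chain of type I collagen that fibroblasts secrete, was at 2035 and 2199 TPM in the controls, 1868 and 1926 TPM after 2 h of H2O2 and 694 and 724 TPM at 7 h. Against KCl at 7 h (1518 and 1613 TPM) it was lower by a log2 difference of -1.16 ± 0.0646 (adjusted p = 6.05e-10, edgeR). It lies 274 kb after Mrpl27, and its estimate at 7 h of H2O2 was 9.06e-05 and 0. The ribosomal protein gene Rps21 was higher at 7 h of H2O2 than of KCl (0.42 ± 0.0812, adjusted p = 0.000254, edgeR). Psmd8, a proteasome subunit 858 bases after Catsperg1, fell at 44 °C from 306 and 297 to 177 and 173 TPM (-0.85 ± 0.0425, adjusted p = 6.08e-10, edgeR). Its upstream gene, a sperm gene, never passed 0.79 TPM.

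Other genes of this class differed by less than 1 on the log2 scale. Calu, a calcium-binding protein of the secretory pathway, was lower in H2O2 than in KCl at 7 h (-0.6 ± 0.0757, adjusted p = 4.29e-06, edgeR), as was Surf4, a cargo receptor of the endoplasmic reticulum (-0.53 ± 0.0581, adjusted p = 9.61e-07). Cnbp, a nucleic acid binding protein, was higher (0.48 ± 0.0582, adjusted p = 2.78e-06). Hnrnpu, a nuclear RNA-binding protein, rose at 42 °C by 0.32 ± 0.0397 (adjusted p = 7.57e-06, edgeR). For Calu, Surf4, Cnbp and Hnrnpu the 2 h estimates of H2O2 were at most 0.00107.

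The genes that carry out cleavage, polyadenylation and termination are not members, and their own RNA was counted from a list of 25, all tested. At 44 °C 14 were higher and 5 lower (against 35.4% and 35.7% of all genes). At 42 °C 17 were higher and 4 lower (against 31.7% and 31.9% of all genes). In H2O2 against KCl at 7 h 5 were higher and 18 lower (41.0% and 37.4% of all genes), with a median log2 difference of -0.27 against 0.05 over all genes. Against the control, which these comparisons share, the median was 0.3 at 7 h of KCl. There 17 were higher and 4 lower (against 37.2% and 31.6% of all genes). At 7 h of H2O2 the median was 0.03, with 5 higher and 6 lower (against 39.4% and 31.1% of all genes). The 2 h contrasts, which chose the pairs, are given as a description. At 2 h of H2O2 7 were higher and 6 lower than in the control (against 27.3% and 26.5% of all genes), with a median of 0.07. At 2 h of KCl 5 were higher and 7 lower, with a median of -0.01. Of 8 NRF2 targets, 7 were higher in H2O2 than in KCl at 7 h, with a median of 1.32.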

How the data were processed

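RNA was measured in 16 and ribosome footprints in 10 NIH3T3 libraries, grouped by their labels. Per the submitters' processing notes, STAR, RSEM and Bowtie and the mm10 build were used, without versions or roles; no source used here gives their settings or the annotation. Per gene, the authors deposited RSEM expected counts (all whole numbers in these tables) and TPM values of the same libraries. For 6399 gene pairs and each RNA library the authors deposited DoG and read-in calls and a read-in estimate, a ratio whose formula no source used here gives. The footprint tables hold 12 further columns without a matching sample label, which were left out.

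The expected counts were tested with edgeR 4.0.16 (quasi-likelihood F test, TMM, filterByExpr, R 4.3.3), with Benjamini-Hochberg adjustment over all genes of a fit and a threshold of 0.05. The heat RNA, the H2O2 and KCl RNA and the footprints were fitted separately (12747, 13256 and 10545 genes), each over all its groups. CPM values are TMM-scaled. The scripts were checked on simulated counts. Footprint ratios of genes with few counts have exact 95% intervals, and groups at 0 were set to a floor of 3 counts. Positions and sequences came from RefSeq tables of GRCm38.p6.

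The pairs, gene lists and tests were chosen with earlier results of these data known. Named pairs were those with the 8 most abundant downstream genes at 2 h of H2O2, the 4 largest called changes in each tested contrast (average log2 CPM of at least 1, groups that do not overlap), the 5 with most footprints, the 3 lowest and 3 highest estimates, and the 8 gained in heat with the highest heat estimates. The rule also named pairs with an authors' read-in call in both 2 h H2O2 libraries, and there were none. Some named pairs are not reported here. Alternatives were DESeq2 1.42.0, other filters, fits of 2 groups, a replicate block, leaving out each library and stricter thresholds.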

Additional observations from a re-analysis of the deposited data

Results flagged for a closer look

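The effects of H2O2 and KCl differed at 7 h in a direct test of the difference (edgeR, adjusted p below 0.05, 2 libraries a group). RNA differed for 242 of 308 downstream and 257 of 322 upstream genes of the pairs, and footprints for 100 of 231 downstream and 92 of 280 upstream genes. These counts lie near the background, since 41.0% of all genes were higher and 37.4% lower in RNA, and 23.5% higher and 17.8% lower in footprints. Among called downstream genes whose average log2 CPM was 1 or more, the largest RNA differences on the log2 scale were those of Matn4 (7.903, adjusted p = 7.68e-14), Notch3 (6.958, adjusted p = 6.79e-15), Tmem184a (5.568, adjusted p = 6.82e-10) and Cebpa (4.813, adjusted p = 2.58e-10), each higher in both H2O2 libraries than in both KCl libraries.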

How the results depend on the processing

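With each library left out in turn, the 329 pairs became 247 to 658, the highest without replicate 1 of H2O2 at 2 h. They were 173 with 0 required in both KCl libraries and 69 with at least 0.1 in both H2O2 libraries. From single libraries, 95 to 111 pairs were above 0 at 7 h of H2O2, 71 to 75 at 7 h of KCl, 82 to 90 in the heat controls, 134 to 141 at 44 °C and 109 to 127 at 42 °C, and with at least 0.1 in both libraries 7, 3, 4, 14 and 13. With a log2 change of at least 1 also required, downstream calls were 31 at 44 °C, 34 at 42 °C, 108 in RNA of H2O2 against KCl at 7 h and 45 in footprints of H2O2 at 7 h against the control. Upstream calls were then 19 at 44 °C, 19 at 42 °C, 73 in RNA against KCl, 39 in footprints against the control and 58 in footprints against KCl. With each library left out, footprint calls against the control ranged from 35 to 55 (downstream) and from 33 to 47 (upstream), and upstream calls against KCl from 59 to 68. These fits hold fewer samples, and the lone library of a group is assumed to vary like the other groups. The other 103 alternative counts were within 1.5 times. No named gene's call reversed in 781 alternative values, and 64 fell below the threshold.

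The replicate numbers are not said to mark a shared batch, and deviations of same-numbered libraries correlated at 0.00 to 0.21, or -0.03 for RNA of H2O2 against KCl. With the replicate block, downstream calls were 198 (44 °C), 184 (42 °C), 243 (RNA against KCl), 74 (footprints against the control) and 104 (footprints against KCl), and upstream calls 241, 216, 259, 65 and 94. Among named genes it ended 1 call, Arc footprints at 7 h of H2O2 (log2 -0.92, adjusted p = 0.0545, edgeR).

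Depth limits what can be said of the 53 pairs at a single step in a 2 h H2O2 library and of genes with footprints near 0.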
